A study of Mus musculus with 12 samples.

Results

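The passage from meiosis to the haploid stage was followed in mouse testes whose germ cells carry a deletion of Hdac3. Pachytene spermatocytes (PS) are meiotic cells in which homologous chromosomes are paired, and round spermatids (RS) come after both meiotic divisions and are haploid. The comparison is between 3 libraries of knockout (KO) RS and 3 libraries of KO PS, which are 6 of the 12 libraries of the study. Both KO groups had the genotype Stra8-cre/Hdac3fl/-, in which 1 Hdac3 allele is flanked by loxP sites, the other allele is null, and Cre is driven by Stra8, a gene switched on in germ cells as they approach meiosis, so that somatic testis cells are not its target. Set beside them were 3 control RS and 3 control PS libraries of the genotype Hdac3fl/+, for which no cre is named and whose genotype label reads wild type. All 16581 genes that passed a filter on low counts, of 21429 in the tables, were compared between the KO groups. The sources used here give neither the ages of the mice, nor the number of animals behind a library, nor the way of isolating the cells.

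HDAC3 is a histone deacetylase that works within nuclear corepressor complexes. In male meiosis the X and Y chromosomes are silenced during the pachytene stage, while autosomes transcribe many genes at a high rate, among them the precursors of pachytene piRNAs, the small RNAs bound by PIWI proteins. After the divisions, round spermatids switch on genes for the acrosome, the flagellum and the packing of DNA with protamines, and many of these messengers are stored before they are translated.

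Levels are given in CPM, a gene's count scaled to the total of its library, and fold changes are edgeR's, on libraries scaled by the trimmed mean of M-values (TMM). In each triple of values the replicates stand in the order 1, 3 and remaining, with replicates 1 and 3 named by their sample titles. The remaining library is the one whose column names its group and carries the number 3, but matches no sample description. The column of the library titled replicate 3 carries a different number, so column numbers and replicate titles conflict. The titles were followed here, and the conflict was not resolved. A gene is called when its adjusted p from edgeR's quasi-likelihood test is under the threshold of 0.05. Total counts ranged from 11205732 to 17467583 per library, and a floor of 3 counts was worth 0.172 to 0.268 CPM. The remaining library had the lowest total in every group, at 13438386 in KO PS, 11205732 in KO RS, 12137427 in control PS and 13089105 in control RS. All other libraries had at least 16842756 counts, so depth went with the replicate number in both genotypes. Hdac3 itself stood at 17.4, 17.5 and 26.3 CPM in KO PS and at 13.7, 16 and 19.4 CPM in KO RS. In control PS it stood at 58.9, 51.5 and 88.9 CPM, and in control RS at 38.9, 42.3 and 49.7 CPM. Every KO library was thus below every control library, and the change within the KO, a log2 fold change of -0.44 (SE 0.20), was not called (edgeR adjusted p = 0.0754), though it was with the replicate number as a block (adjusted p = 0.00832). KO RS replicate 1 stood apart from its group, with a chi-square per gene of 57.8 and 46.3 against the other KO RS libraries, which differed from each other by 15.7. The largest value within a group was 71.4, between control RS replicates 1 and 3. Against the remaining control RS library these gave 25 and 28.8.

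Markers of somatic testis cells differed between the KO stages and are given here because they touch every group below. The summed level of 25 Sertoli genes ran from 1313 to 2626 CPM in KO PS and from 266.2 to 725.7 CPM in KO RS. That of 15 Leydig genes ran from 783.8 to 1627 CPM in KO PS and from 140.5 to 451.9 CPM in KO RS. In the other direction, 14 macrophage genes summed to 28.8 to 49.9 CPM in KO PS and 265.0 to 394.9 CPM in KO RS, and 16 peritubular and fibroblast genes to 107.9 to 176.1 CPM and 368.7 to 795.8 CPM. None of these sums overlapped between the stages, no tested member of these lists was at 0 in all libraries of a KO group, and their part in the results was not tested. In bulk libraries a change in the number of cells of a type and a change of RNA per cell cannot be told apart.

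Most of the transcriptome moved between the KO stages. Of the 16581 genes, 9630 were called, which is 58.1%, with 5053 higher in KO RS (30.5%) and 4577 lower (27.6%). The counts of every gene list below are to be read beside these shares. Rises were larger than falls: 2048 genes rose and 579 fell by over 4-fold, and the 5% and 95% points of the log2 fold changes were -1.78 and 2.66 around a median of -0.02. In 10515 genes, 63.4% of those tested, the KO groups did not overlap, and 9159 of them were also called.

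**Figure D1:**
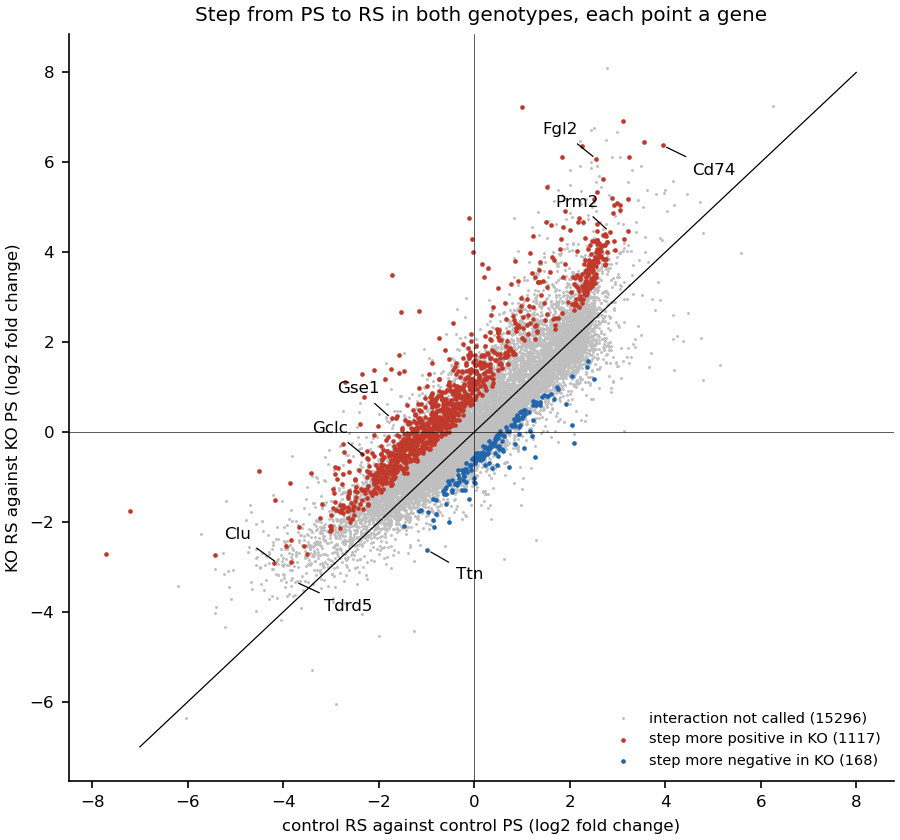
Each point is 1 of the 16581 genes, placed by its log2 fold change from PS to RS in control mice (horizontal) and in KO mice (vertical), with the diagonal of equal change. Red marks the 1117 genes and blue the 168 genes whose steps differed between the genotypes in the fit with the replicate block, and grey all others.

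The largest rises among genes of at least 100 CPM in KO RS were of spermatid genes. Prm2, a protamine that replaces histones on sperm DNA, went from 126, 211 and 311 CPM in KO PS to 2230, 7009 and 6415 CPM in KO RS. Every RS library was above every PS library, RS replicate 1 being the lowest of its group, and the log2 fold change was 4.46 (SE 0.52, edgeR adjusted p = 6.39e-06). The others of the 10, with log2 fold changes of 3.99 to 4.40, were Fscn3, a testis fascin that bundles actin, Car2, a carbonic anhydrase, Prm1, the other protamine, Ubqlnl, a ubiquilin relative, Spem1, needed to shed spermatid cytoplasm, Tppp2, a tubulin-associated protein, Paqr5, a membrane progestin receptor, Oxct2b, an enzyme of ketone use, and Spatc1, a protein of the sperm centrosome. With a minimum of 20 CPM in place of 100, the 10 largest rises were led by immune genes, described with the somatic markers below.

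The largest falls among genes of at least 100 CPM in KO PS included the piRNA genes Piwil1 and Tdrd5. Pou5f2, a POU-domain transcription factor of the testis, went from 125, 114 and 132 CPM in KO PS to 9.80, 9.03 and 6.34 CPM in KO RS. It fell by 3.98 on the log2 scale (SE 0.27, edgeR adjusted p = 1.24e-07), and the groups were far apart. The other falls in that group of 10 ran from -3.32 to -2.92 and were of Tdrd5, Mgll, a monoglyceride lipase, Piwil1, Chst1, a sulfotransferase, Fbxo43, an inhibitor of the anaphase-promoting complex, Lcn2, a lipocalin, Slc47a2, an organic cation transporter, Lrrc61 and Clu, the secreted chaperone clusterin, which is abundant in Sertoli cells. With the minimum of 20 CPM the falls also held Klk1b24 (-4.02), Klk1b27 (-3.92) and Klk1b21 (-3.71), kallikreins of Leydig cells whose near-identical sequences make their counts uncertain, and Zfp389 (-3.61), Fam13c (-3.44) and Dcdc2b (-3.30).

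To show what the start sites of strongly moving genes look like, the 250 bases before the annotated start of 3 rising and 3 falling genes are printed below from RefSeq on build GRCm38.p6, with every CG dinucleotide in capitals. They are the first of each direction, by fold change, among the genes of at least 100 CPM named above whose single listed start lies at the edge of the annotated gene. Prm2 lies at chr16:10792106-10792355, Prm1 at chr16:10796824-10797073 and Spem1 at chr11:69822166-69822415, all on the minus strand. Among the falling genes, Pou5f2 lies at chr13:78024652-78024901 on the plus strand, Lcn2 at chr2:32387740-32387989 and Slc47a2 at chr11:61342861-61343110, both on the minus strand.
Prm2: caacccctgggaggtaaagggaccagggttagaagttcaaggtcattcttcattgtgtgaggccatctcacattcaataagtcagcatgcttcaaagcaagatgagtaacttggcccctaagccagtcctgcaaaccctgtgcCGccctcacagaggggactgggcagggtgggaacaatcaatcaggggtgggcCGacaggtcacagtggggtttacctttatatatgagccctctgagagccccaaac
Prm1: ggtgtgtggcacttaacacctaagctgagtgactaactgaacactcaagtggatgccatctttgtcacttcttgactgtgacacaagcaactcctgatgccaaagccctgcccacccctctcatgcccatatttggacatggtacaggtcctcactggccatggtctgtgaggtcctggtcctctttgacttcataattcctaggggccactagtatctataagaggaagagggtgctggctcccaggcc
Spem1: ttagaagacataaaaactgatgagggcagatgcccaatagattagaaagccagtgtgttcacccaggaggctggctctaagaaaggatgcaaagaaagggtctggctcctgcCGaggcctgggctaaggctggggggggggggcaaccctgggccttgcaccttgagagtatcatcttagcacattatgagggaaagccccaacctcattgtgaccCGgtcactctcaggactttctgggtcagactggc
Pou5f2: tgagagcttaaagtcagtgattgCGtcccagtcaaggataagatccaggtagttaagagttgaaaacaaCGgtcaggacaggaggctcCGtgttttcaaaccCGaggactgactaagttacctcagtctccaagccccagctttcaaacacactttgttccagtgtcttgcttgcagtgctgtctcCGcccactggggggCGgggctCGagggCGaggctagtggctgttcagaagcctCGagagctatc
Lcn2: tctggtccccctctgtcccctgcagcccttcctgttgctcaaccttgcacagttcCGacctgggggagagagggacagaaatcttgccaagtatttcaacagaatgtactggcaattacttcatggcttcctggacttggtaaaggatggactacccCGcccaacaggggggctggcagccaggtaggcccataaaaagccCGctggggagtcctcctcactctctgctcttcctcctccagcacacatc
Slc47a2: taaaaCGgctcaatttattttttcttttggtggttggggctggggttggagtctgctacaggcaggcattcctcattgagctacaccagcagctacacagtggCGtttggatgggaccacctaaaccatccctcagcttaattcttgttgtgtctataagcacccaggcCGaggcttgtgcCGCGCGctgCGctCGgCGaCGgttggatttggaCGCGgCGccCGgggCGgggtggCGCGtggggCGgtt
The printed stretches hold 2, 0 and 2 CG dinucleotides for the rising genes and 9, 3 and 18 for the falling genes. Over windows of 300 bases, from 250 before to 50 after the start, a match was found for 12898 of the tested genes, with a median of 18 CG (quartiles 8 to 27). The 1570 windows of genes that rose by over 4-fold had a median of 5 CG (2 to 16), those of the 409 genes that fell by over 4-fold a median of 11 (5 to 22), and those of the 5427 genes not called a median of 20 (11 to 28). The full cyclic AMP response element TGACGTCA, searched on both strands, was in 2.98% of all windows, 2.1% of those that rose by over 4-fold and 0.978% of those that fell by over 4-fold. The MYB motif AACTGNC was in 12.2%, 13.9% and 13.2%, and the RFX motif GTTGCCA in 4.67%, 6.31% and 3.18% of the same sets. Of the 6 genes printed, none has 1 of these motifs in its window.

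Many genes of the pachytene stage fell. In the list of pachytene regulators and piRNA proteins, 15 of 22 genes were called lower in KO RS, with a median log2 fold change of -1.05 against -0.02 over all genes tested (30.5% called higher and 27.6% lower). Piwil1, the PIWI protein MIWI that binds pachytene piRNAs, stood at 1525, 1313 and 1236 CPM in KO PS and at 91.7, 227 and 148 CPM in KO RS. Its fall of 3.28 on the log2 scale (SE 0.29, edgeR adjusted p = 5.79e-07) left no overlap. Tdrd5, a tudor-domain protein of piRNA production, went from 507, 397 and 366 CPM to 28.6, 66.2 and 46.1 CPM. Tdrd1 and Pld6, which act in the same pathway, fell by 2.71 each, and Mybl1, the transcription factor A-MYB that drives pachytene piRNA precursors, by 1.36. Tcfl5, a pachytene transcription factor, fell by 0.95. The other 7, Gtsf1, Ythdc2, Tdrd7, Ddx25, Mael, Ddx4 and Tdrd6, were not called, with log2 fold changes from 0.38 to -0.48, though Gtsf1, a piRNA cofactor, was called higher with the replicate block (adjusted p = 0.0148).

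Of 20 genes of the synaptonemal complex and the chromosome axis, 7 were called higher and 4 lower (median 0.21). Of all genes tested, 30.5% were higher and 27.6% lower. The falls were of Sycp2, an axis protein at 1006, 814 and 622 CPM in KO PS and 305, 342 and 302 CPM in KO RS, a log2 change of -1.5, and of Hormad1 (-0.95), Sycp3 (-0.72) and Syce1 (-0.42). Sycp3 stood at 254, 366 and 238 CPM in KO PS and still at 122, 276 and 182 CPM in KO RS. Its groups overlapped, and its call (edgeR adjusted p = 0.0446) was lost in 7 of the alternative settings. Leaving out KO PS replicate 3 or the remaining KO RS library left 2 genes of the list called lower. Among the rises, Rec8, the meiotic cohesin, went from 27.1, 26.2 and 29.8 CPM to 147, 106 and 110 CPM, a log2 change of 2.02 (SE 0.18, edgeR adjusted p = 6.15e-07). Rad21l, another cohesin subunit, rose by 2.0, Syce2 by 1.90 and Mei4, a partner of the break machinery, by 1.87, the last at no more than 2.23 CPM in any KO library. Sycp1, the transverse filament protein, gave -0.15 and was not called.

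Of 26 recombination genes, 8 were called higher and 9 lower (median -0.10), shares near the 30.5% and 27.6% of all genes tested. Prdm9, the histone methyltransferase that places recombination sites, stood at 6.99, 6.63 and 9.53 CPM in KO PS and 35.8, 30.5 and 34.0 CPM in KO RS. Dmc1, the meiotic strand-exchange protein, went from 9.84, 8.33 and 14.1 CPM to 43.9, 47.9 and 44.9 CPM, and Tex15 from 85.0, 64.5 and 63.1 CPM to 426, 289 and 274 CPM. These are genes known from early prophase, and all 3 rose, by 2.0, 1.97 and 2.1 on the log2 scale. Tex11 rose by 2.35, Brca1 by 1.85 and Zcwpw1, a reader of PRDM9 marks, by 1.24. The falls were led by Mlh3, a protein of crossover sites, at 122, 113 and 93.7 CPM in KO PS and 26.1, 36.4 and 26.3 CPM in KO RS (-2.02), and by Spo11, which makes the breaks (-1.57), Mdc1, a DNA damage mediator (-1.48), and Atr, a checkpoint kinase (-1.29). In control mice Prdm9, Dmc1 and Tex15 were also called higher in RS, at 1.70, 1.53 and 2.03.

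Of 34 genes of the meiotic divisions, 15 were called lower and 8 higher (median -0.26). Fbxo43 went from 115, 97.0 and 92.1 CPM to 13.5, 13.3 and 13.1 CPM, a log2 change of -3.06. Cks2, a cyclin-dependent kinase subunit, fell by 2.48, Cdca8, a chromosomal passenger protein, by 1.42, Pttg1, the securin, by 1.42, and Cdk1, the kinase of division entry, by 1.31. In the other direction, Ccnb3, a B-type cyclin, rose by 2.02 and Cdc25c, the phosphatase that activates CDK1, by 1.75. Plk1, a mitotic kinase, stood at 96.8, 104 and 101 CPM in KO PS and 205, 182 and 138 CPM in KO RS. Its rise of 0.69 (edgeR adjusted p = 0.0125) was not called without KO PS replicate 1 or without KO RS replicate 1. Ccna1, the meiotic cyclin A, did not pass, at -0.07.

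**Figure D2:**
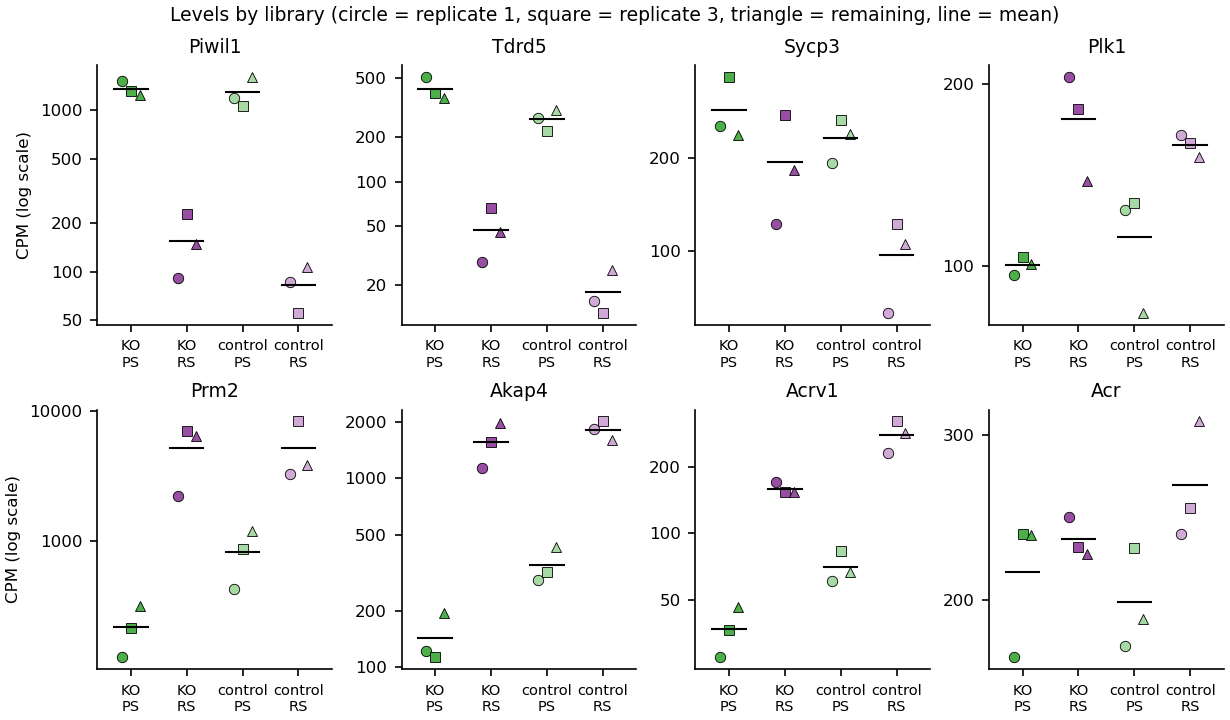
Level of 8 germ cell genes in each of the 12 libraries in CPM, on a log axis, by group. Piwil1 and Tdrd5 fell from KO PS to KO RS without overlap, Sycp3 overlapped, Prm2, Akap4 and Acrv1 rose, and the KO groups of Acr overlapped.

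Genes of chromatin packing rose, and their levels varied between libraries. Of 21 transition proteins, protamines and testis histones, 11 were called higher and 2 lower (median 1.78). The list summed to 1858 to 2499 CPM in KO PS and to 6226, 16050 and 16840 CPM, from low to high, in KO RS, replicate 1 being the lowest. Prm1 went from 42.1, 108 and 166 CPM to 730, 3121 and 2743 CPM, a log2 change of 4.24 (SE 0.67, edgeR adjusted p = 9.68e-05). Tnp2, a transition protein that comes between histones and protamines, went from 63.0, 114 and 198 CPM to 912, 2548 and 2446 CPM (3.85). For Prm1, Prm2 and Tnp2 replicate 1 was the lowest library in both KO stages. Tnp1 behaved otherwise, at 5.24, 11.3 and 153 CPM in KO PS and 74.3, 254 and 2295 CPM in KO RS. The remaining library was the highest in each group, the groups overlapped, and the rise of 3.85 (SE 1.52, edgeR adjusted p = 0.0412) was lost under 4 alternatives, falling to 1.47 without the remaining KO RS library. The testis linker histones H1fnt and Hils1 rose by 3.41 and 2.4, H2afb1, a testis H2A variant on the X, by 3.75, and the chromatin regulators Cdyl and Chd5 by 2.44 and 2.16. H2afz, the H2A.Z variant, fell by 1.10 and Epc1 by 0.84.

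Acrosome genes fell into separate sets. Of 40 genes, 24 were called higher, 3 lower and 13 neither (median 1.91). Within the 24, the log2 fold changes were between 1.15 for Actl7b and 2.5 for Cylc2, a cytoskeletal protein under the acrosome. Acrv1, an acrosomal matrix protein, stood at 27.5, 36.7 and 46.4 CPM in KO PS and at 171, 153 and 153 CPM in KO RS (2.0, SE 0.21, edgeR adjusted p = 2.60e-06). Izumo1, the sperm protein that binds the egg receptor JUNO, went from 19.6, 19.7 and 23.8 CPM to 103, 89.5 and 92.1 CPM (2.06), and Spaca1, an acrosomal membrane protein, from 35.5, 43.8 and 52.0 CPM to 179, 191 and 158 CPM (1.89). The PS and RS libraries of these genes were well separated. Replicate 1 was the lowest library in KO PS but in none of the 3 genes in KO RS. Acr, the acrosomal protease acrosin, was already at 174, 235 and 234 CPM in KO PS and stood at 245, 227 and 224 CPM in KO RS, with a log2 change of -0.00 (SE 0.17, edgeR adjusted p = 0.994). Acrbp, which binds proacrosin, Zpbp, Zpbp2, Crisp2 and Spesp1 likewise gave values between -0.23 and 0.16. Called lower were Gopc (-2.13), a Golgi protein of acrosome formation, Tmprss12 (-2.03) and Izumo4 (-0.59), and 6 genes were lower with the replicate block and 7 without KO RS replicate 1.

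Of 55 genes of the sperm tail, 26 were called higher and 12 lower (median 0.41). The largest rises, of Tppp2 (4.17), Spata3 (3.79), Spata18 (3.6), Oaz3 (3.54), Smcp (3.44), Odf1 (3.36) and Akap4 (3.31), included parts of the fibrous sheath, the outer dense fibres and the mitochondrial sheath. Akap4, the main fibrous sheath protein, which is X-linked, went from 122, 113 and 194 CPM to 1140, 1562 and 1954 CPM. Odf1, an outer dense fibre protein, went from 53.8, 56.4 and 97.0 CPM to 495, 807 and 1028 CPM. The falls included axoneme and dynein genes: Dnah8, Dnah1 and Dnah17, which encode dynein heavy chains, fell by 1.30, 1.21 and 1.18, the radial spoke gene Rsph1 by 1.37, Ccdc39 by 1.38 and Ccdc40 by 0.65. Dnah8 stood at 4096, 2950 and 2455 CPM in KO PS and at 2010, 1095 and 1055 CPM in KO RS. Without the remaining libraries of all groups, 7 tail genes were called lower.

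Signalling genes of sperm moved both ways. Of 30 ion channels and kinases, 16 were called higher and 8 lower (median 1.42). Tssk6, a testis-specific serine kinase of spermatid chromatin, went from 6.29, 8.97 and 18.9 CPM to 103, 200 and 232 CPM (3.85), and Tssk3 rose by 3.30, Tssk2 by 2.73 and Tssk1 by 1.95. Catsper1, a pore subunit of the sperm calcium channel, went from 24.9, 21.0 and 36 CPM to 136, 112 and 128 CPM (2.1). The pore subunits Catsper3 and Catsper4 rose by 1.96 and 2.06, and Catsper2 gave -0.14 and was not called. The accessory subunits Catsperb, Catsperg1, Catsperd and Catsperg2 fell, by 0.87, 0.91, 1.14 and 1.20, as did Stk31, a germ cell kinase, by 1.65.

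Of 34 energy genes, 9 were called higher and 9 lower (median -0.08), again near the 30.5% and 27.6% of all genes tested. Gapdhs, the sperm form of glyceraldehyde phosphate dehydrogenase, went from 78.1, 82.1 and 159 CPM to 734, 1137 and 1453 CPM (3.26, SE 0.30, edgeR adjusted p = 9.69e-07). Aldoart1 and Aldoart2, testis aldolases with similar sequences, rose by 2.77 and 2.44, Hk1, hexokinase 1, by 2.30 and Pgk2, the testis phosphoglycerate kinase, by 1.54. Ldhc, the testis lactate dehydrogenase, was at 3003, 3619 and 3814 CPM in KO PS and 2627, 2727 and 2678 CPM in KO RS, and fell by 0.50. Slc2a3, a glucose transporter, fell by 2.1, from 3834, 3564 and 3744 CPM to 1058, 940 and 816 CPM. Ldhb, a lactate dehydrogenase subunit, fell by 2.06, Cyct, testis cytochrome c, by 1.76 and Pdha2, a testis pyruvate dehydrogenase subunit, by 1.41.

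**Figure D3:**
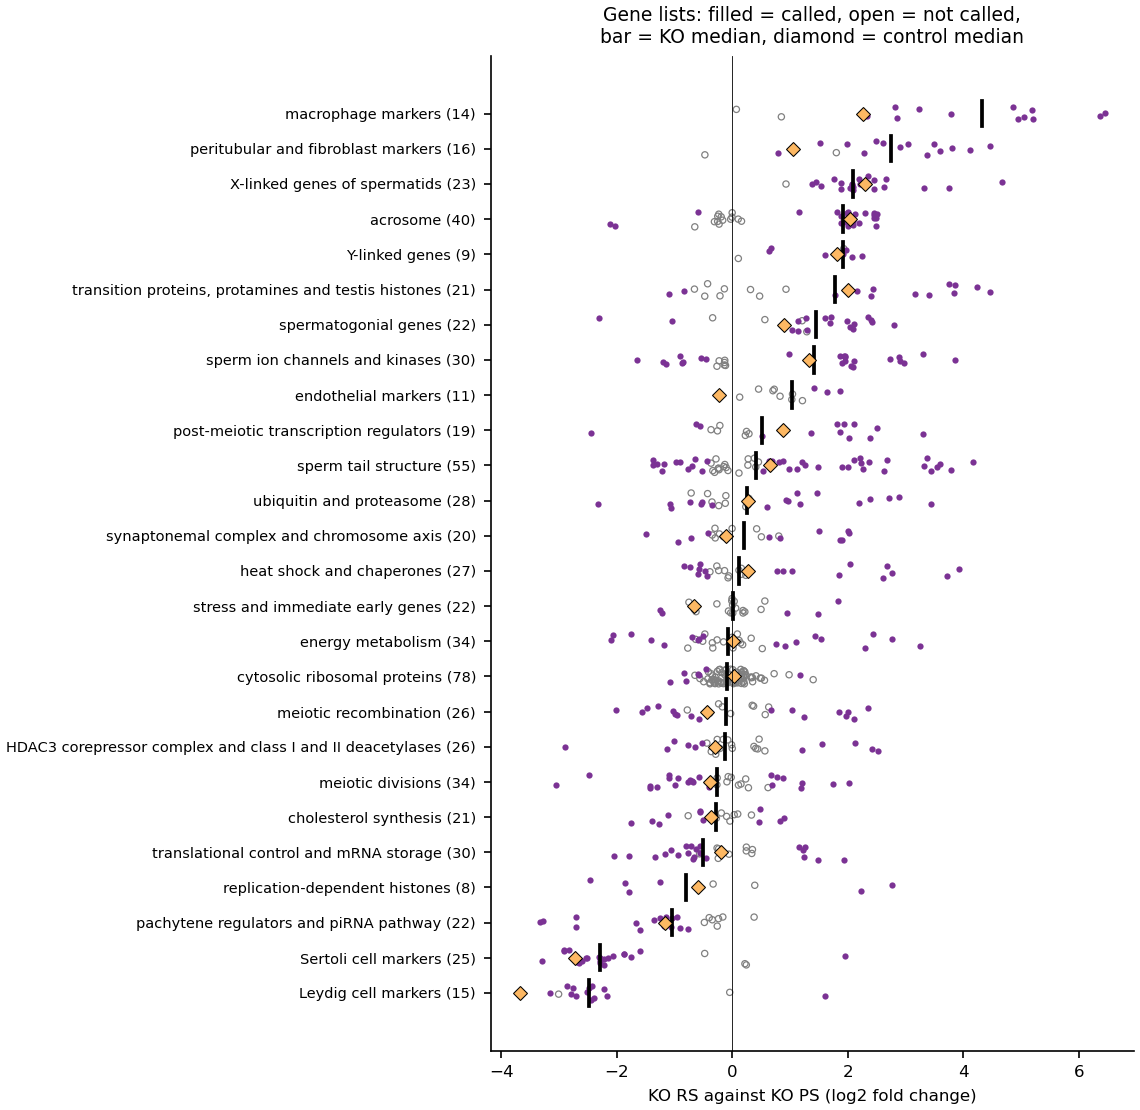
Log2 fold change from KO PS to KO RS of every tested member of each gene list (filled points called by edgeR, open points not), with a bar at the median of the list in the KO step and a diamond at its median in the control step. The red blood cell list, with 1 tested gene, is not drawn. The KO medians of the piRNA, Sertoli and Leydig lists lie below 0, and those of the acrosome, X-linked spermatid, peritubular and macrophage lists above it.

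Of 19 transcription regulators of post-meiotic cells, 10 were called higher and 3 lower (median 0.51). Spz1, a basic helix-loop-helix factor, went from 75.8, 69.6 and 137 CPM to 687, 999 and 1372 CPM (3.31). Fhl5, the coactivator ACT, rose by 2.51, Kif17, the motor that moves it, by 2.38, and Taf7l, a testis form of a TFIID subunit, by 2.11. Crem, the activator of many spermatid genes, was at 149, 173 and 148 CPM in KO PS and 221, 224 and 181 CPM in KO RS, and its change of 0.29 (SE 0.19) was not called (edgeR adjusted p = 0.203). Rfx2, a factor of spermatid genes, gave -0.21 and was not called, while Sox30, which acts at the same stage, rose by 0.51. Gmcl1 fell by 2.44, Rfx4 by 0.63 and Brdt, the testis bromodomain protein, by 0.56, and 5 genes of the list were lower without KO RS replicate 1.

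Translation regulators moved down more often than up, with 15 of 30 called lower and 6 higher (median -0.50). Ybx2, the germ cell protein that stores messengers, was at 2300, 2385 and 2497 CPM in KO PS and 1832, 1929 and 1972 CPM in KO RS (-0.45, SE 0.13, edgeR adjusted p = 0.00980). Nxf3, an RNA export factor, fell by 2.06, Paip1, a partner of poly(A)-binding protein, by 1.8, Dazap1 by 1.33 and Ddx6, a helicase of storage granules, by 1.06. Dazl, an RNA-binding protein of the germ line, rose by 1.15, from 149, 133 and 131 CPM to 285, 378 and 342 CPM, and Cpeb1 by 1.49.

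Of 28 ubiquitin and proteasome genes, 11 were called higher and 7 lower (median 0.25). Rnf133 and Rnf148, ubiquitin ligases of the testis, rose by 3.45 and 2.89, and Klhl10, a ligase adaptor of spermatids, by 2.39. Psma8, the proteasome subunit of spermatocytes, went from 297, 328 and 227 CPM to 33.4, 96.1 and 60.5 CPM (-2.32). Of 27 chaperones, 10 were called higher and 7 lower (median 0.12). For both lists the shares of all genes tested were 30.5% higher and 27.6% lower. Hspa1l, a spermatid HSP70 whose relatives Hspa1a and Hspa1b are near-identical to each other, went from 30.0, 30.8 and 59.2 CPM to 389, 587 and 744 CPM (3.72). Dnajb8, a DNAJ protein, rose by 3.93 and Calr3, a testis calreticulin, by 2.67. Hspa2, the meiotic HSP70, fell by 0.57, Hsp90aa1 by 0.73 and Clgn, calmegin, by 0.84.

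Genes of the X and Y chromosomes rose as a class. Of 695 tested X-linked genes, 434 were called higher in KO RS (62.4%) and 74 lower (10.6%), with a median log2 fold change of 1.36 (quartiles 0.30 and 1.93). On the autosomes together 29.0% were higher and 28.4% lower, with a median of -0.06, and the medians of single autosomes lay between -0.15 for chromosome 10 and 0.11 for chromosome 14. The share of all counts that came from X-linked genes was 0.436%, 0.429% and 0.638% in KO PS and 1.11%, 1.33% and 1.35% in KO RS. No libraries overlapped and the mean was 2.52-fold higher in RS (exact permutation test, two-sided, p = 0.1, the smallest that 3 against 3 can give). The Y share was 3.46-fold higher (exact permutation p = 0.1). In control mice the ratios were 2.38 and 2.92, and the X median was 1.25 with 54.2% called higher. The Y went the other way in its median over 14 tested genes, at 1.71 in the KO and 1.86 in control mice, with 10 called higher in each.

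**Figure D4:**
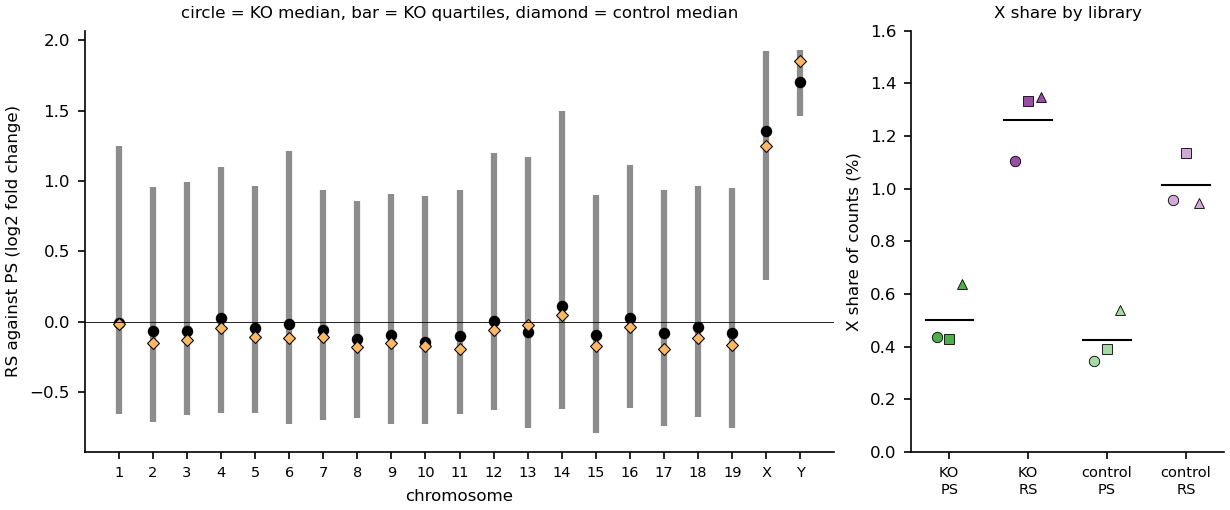
Left, median and quartiles of the log2 fold change from KO PS to KO RS of the tested genes of each chromosome. Right, the share of counts from X-linked genes in each library, in percent. The X and Y medians of 1.36 and 1.71 lie above every autosome, and every RS library has a larger X share than any PS library.

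Of 23 X-linked genes known from spermatids, 22 were called higher (median 2.1; control 2.30). Cypt14 (4.66), H2afb1 (3.75) and Akap4 (3.31) had the largest changes, and Cypt3, Cypt15, Slx, Slxl1, Xlr and Xlr3a, members of families with near-identical copies whose counts are uncertain, rose by 1.45 to 2.66. The 1 gene not called was H2afb3 (0.93). In a list of Y-linked genes, 7 of the 9 tested were called higher. Eif2s3y, a translation initiation factor subunit, went from 19.8, 21.1 and 23.4 CPM to 72.1, 76.1 and 64.2 CPM (1.6), Uba1y, a ubiquitin-activating enzyme, rose by 2.25 and Zfy2, a zinc finger factor, by 1.91. Ssty2 (1.93) and Kdm5d (0.11) were not called.

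Several X-linked genes have an autosomal copy that is used while the X is silent. The 16 pairs tested were each of an X-linked gene and an autosomal paralog, called its copy here. Whether each paralog serves in place of the X gene was not tested. In 5 pairs the X gene was called higher and the autosomal copy lower in KO RS. Cstf2, a subunit of the cleavage stimulation factor, went from 21.4, 17.6 and 27.8 CPM to 91.5, 85.8 and 90.2 CPM (1.89), while its copy Cstf2t went from 91.1, 79.8 and 68.6 CPM to 36.6, 39.0 and 32.7 CPM (-1.27). The others were the export cofactors Nxt2 (1.40) and Nxt1 (-1.02), the translocase subunits Timm17b (1.8) and Timm17a (-0.61), the splicing proteins Hnrnph2 (1.55) and Hnrnph1 (-0.64), and the centrins Cetn2 (1.33) and Cetn1 (-0.60). In control mice the X gene of all 5 pairs was also called higher. There Cstf2t, Nxt1 and Hnrnph1 were called lower (-1.65, -0.62 and -1.19), and Timm17a and Cetn1 were not called (0.02 each). In 2 pairs the autosomal copy alone was called higher: Pgk1 and G6pdx on the X were not called (0.33 and -0.40), while Pgk2 and G6pd2 rose by 1.54 and 2.24. Pdha1 and Rpl10 were not called (0.14 and 0.72), and their copies Pdha2 and Rpl10l fell by 1.41 and 0.60. The remaining 7 pairs held 1 with both higher (Gk and Gykl1), 1 with both lower (the ADP/ATP carriers Slc25a5 and Slc25a31), 3 with the X gene alone higher (Rbmx, Utp14a and Usp26) and 2 with neither called.

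Marker lists of somatic cells moved in opposite directions. Of 25 Sertoli genes, 21 were called lower in KO RS and 1 higher (median -2.28), and of 15 Leydig genes 12 lower and 1 higher (median -2.49). Clu stood at 512, 566 and 1128 CPM in KO PS and 27.4, 205 and 89.8 CPM in KO RS. Cyp17a1, an enzyme of androgen synthesis, stood at 155, 177 and 336 CPM in KO PS and 6.39, 66.5 and 28.2 CPM in KO RS. In both genes the remaining library was the highest of KO PS, and replicate 3 the highest of KO RS. Fshr, the receptor for follicle-stimulating hormone that defines Sertoli cells, was at 2.80, 2.99 and 3.13 CPM in KO PS and at 0.0587, 0.637 and 0.268 CPM in KO RS, of which replicate 1 was under the floor of 3 counts and the remaining library at it.

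Macrophage genes made up most of the 10 largest rises with at least 20 CPM in KO RS. Of 14, 12 were called higher (median 4.33). Cd74, the invariant chain of class II histocompatibility molecules, went from 0.349, 0.587 and 1.12 CPM to 52.2, 62.1 and 68.0 CPM, a log2 change of 6.38 (SE 0.49, edgeR adjusted p = 2.46e-07). H2-Aa, a class II chain, went from 0.117, 0.235 and 0.893 CPM to 27.5, 40.9 and 44.9 CPM (6.45, SE 0.61), the first value being under the floor. The other largest rises, of 4.56 to 6.11, were of H2-Eb1, another class II chain, Fgl2, a fibrinogen-like protein, Csf1r, the receptor that macrophages depend on, the complement genes C1qa, C1qb and C1qc, Lyz2, lysozyme, and Cyp26b1, which degrades retinoic acid. In control mice the same list gave a median of 2.26 and a sum of 83.7 to 104.3 CPM in RS. Of 16 peritubular and fibroblast genes, 14 were called higher (median 2.75; control 1.05), and Mylk, a smooth muscle kinase, was called lower with the replicate block (-0.47, adjusted p = 0.00967). Those that rose included Dcn, decorin (4.46), Col1a1, a collagen chain (4.11), and the smooth muscle genes Myh11 (3.81) and Acta2 (3.37). Endothelial genes summed to 11.4 to 52.7 CPM in KO PS and 27.7 to 77.1 CPM in KO RS, which overlapped. Of 11, 3 were called higher, a count that was 6 with the replicate block and 9 without the remaining KO PS library. Alas2, the 1 red blood cell gene that passed the filter, fell by 2.67.

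Genes of spermatogonia and of meiotic entry rose from KO PS to KO RS, with 16 of 22 called higher and 2 lower (median 1.45; control 0.90). Stra8, the meiotic entry gene whose promoter drives the Cre, went from 14.3, 18.1 and 18.7 CPM to 61.6, 55.0 and 63.8 CPM (1.70). Dmrt1, a factor that holds spermatogonia in mitosis, went from 7.92, 9.50 and 16.6 CPM to 36, 57.3 and 59.2 CPM (2.04), and Kit, the stem cell factor receptor, from 20.3, 15.1 and 26.0 CPM to 40.6, 40.0 and 55.9 CPM (1.03). Zbtb16, known as PLZF in undifferentiated cells, rose by 1.69, Lin28a by 2.42 and Sall4 by 1.98. Id4 and Etv5 fell, by 2.31 and 1.05, a count of 1 gene without the remaining KO PS library or without KO RS replicate 1. The list as a whole summed to 862 to 1170 CPM in KO PS and 1074 to 1181 CPM in KO RS, which overlapped.

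Most genes that moved in control mice moved the same way in the KO. In control mice 9742 genes were called (58.8%), with 4612 higher in RS (27.8%) and 5130 lower (30.9%). Of the 4612, 3901 were also called higher in the KO (84.6%), 710 were not called and 1 was lower. Of the 5130, 3735 were also called lower (72.8%), 1376 were not called and 19 were higher. Across genes, which are not independent replicates, the steps had a Pearson r of 0.878. The sizes were distributed otherwise. Of the genes called higher, 545 of 5053 (10.8%) rose by over 3 on the log2 scale in the KO, and 91 of 4612 (1.97%) in control mice. At the lower cut of 4-fold, rises were 2048 in the KO and 1642 in control mice, and falls were 579 and 1054.

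A test of the difference between the steps, the interaction of stage and genotype, called 3 genes (0.0181%), all with a more positive step in the KO, and 0 in the other direction, where 346 had an unadjusted p under 0.05 and DESeq2 called 8. Gse1, a subunit of a histone demethylase corepressor complex, stood at 20.2, 17.5 and 19.4 CPM in KO PS and 22.6, 25.7 and 28.9 CPM in KO RS, but at 22.2, 16.6 and 20.8 CPM in control PS and 5.53, 5.17 and 5.65 CPM in control RS. The difference of steps was 2.04 on the log2 scale (SE 0.25, edgeR adjusted p = 0.0154). Gclc, the catalytic subunit for glutathione synthesis, went from 50.6, 41.9 and 46.7 CPM to 28.9, 36 and 38.1 CPM in the KO and from 76.7, 76.5 and 71.8 CPM to 14.7, 12.3 and 16.3 CPM in control mice, a difference of 1.68 (SE 0.22, edgeR adjusted p = 0.0154). Both genes thus kept more of their PS level in KO RS than in control RS. The third, Cspg4, a proteoglycan of pericytes, was low, at 0.233, 0.0587 and 0.149 CPM in KO PS and 1.99, 4.05 and 4.11 CPM in KO RS (edgeR adjusted p = 0.0486).

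With the replicate number as a block, which removes the differences shared by libraries of 1 number, the same test called 1285 genes (7.75%), 1117 with a more positive step in the KO (6.74%) and 168 with a more negative one (1.01%). The block was shared by both genotypes, and whether replicate numbers match between genotypes was not checked. The split rests on the scaling and on single libraries. It was 86.9% positive with TMM scaling, 63.2% with DESeq2 size factors (804 and 469), 98.8% by library size alone (2827 and 34) and 48.4% without KO RS replicate 1 (1347 and 1435). The median interaction over all genes was 0.11 with TMM, 0.01 with DESeq2 size factors and 0.37 by library size alone, so the signs of small differences are relative to that choice. Of the genes with a positive difference, 600 were called lower in the control step (medians -0.37 in the KO and -1.43 in control mice), 303 were not called there (1.10 and -0.12) and 214 were higher (3.52 and 2.33). These calls and medians of the steps are from the fit without the block. Since the genes were picked for a positive difference, a KO median above the control median was set by that choice. All 804 positive and 168 of the 469 negative genes found with DESeq2 size factors were among those found with TMM, and no gene changed sign between these settings.

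Of the 119 listed or named genes that the blocked test called, 32 were called under each of 14 further blocked settings, with 2 other scalings and each of the 12 libraries left out, and those named in this paragraph and the next, apart from E2f6 and Zbtb1, are of the 32. Genes that fell in control mice and not in the KO included Gigyf1, a translational repressor, at 55.2, 33.4 and 46.9 CPM in KO PS and 58.7, 46.4 and 66.8 CPM in KO RS, against 43.6, 32.2 and 53.5 CPM and 14.7, 11.4 and 18.6 CPM in control mice. Its blocked difference was 1.61 (SE 0.19, edgeR adjusted p = 0.000475). Gtse1, a microtubule-binding regulator of G2, had 1.87, Plcb3, a phospholipase C, 1.59, Klf10, a zinc finger factor, 1.52, Mis18a, needed to load centromeric histone, 1.51, Traf7, a ubiquitin ligase, 1.37, and Trp53inp1, a p53 target, 1.35.

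Other genes rose in the KO and were not called in control mice. Hells, a chromatin remodeler tied to DNA methylation, went from 39.3, 44.5 and 34.4 CPM to 119, 134 and 124 CPM in the KO, and from 34.9, 37.0 and 32.5 CPM to 31.0, 39.6 and 37.4 CPM in control mice. The KO RS libraries were thus well above the other 9, and the blocked difference was 1.37 (SE 0.18, edgeR adjusted p = 0.00133). Mki67, the proliferation antigen Ki-67, went from 67.4, 57.8 and 54.5 CPM to 175, 152 and 177 CPM in the KO, with control RS at 63.5, 46.5 and 77.7 CPM (1.39). Wdhd1, a replication protein, had 1.27, Scaf11, a splicing factor, 1.24, Ptma, prothymosin, 1.20 and Slk, a kinase, 1.04. Acta2 and Myh11, markers of smooth muscle, had 2.34 and 2.75. In these 2 the lists of peritubular genes moved with the result, and their part in it was not tested. Called in opposite directions were 20 genes, 19 of them higher in the KO step, among them E2f6, a transcriptional repressor, Ptpn12, a phosphatase, Sbk1, a kinase, Ttc19, a mitochondrial assembly factor, and Zbtb1, with blocked differences of 1.58 to 2.08. The 1 reverse case was Zscan2, a zinc finger gene, at 93.1, 82.5 and 82.5 CPM in KO PS and 70.6, 66.3 and 65.6 CPM in KO RS, with control libraries of 76.3, 69.5 and 75.3 CPM and 96.1, 79.7 and 97.4 CPM (-0.91, edgeR adjusted p = 0.00633). Tpi1, a glycolytic enzyme, rose in control mice, from 178, 165 and 212 CPM to 287, 328 and 345 CPM, and was already at 302, 325 and 335 CPM in KO PS (-0.82). Frat2, which binds GSK3, Man2a1, a Golgi mannosidase, and Zfand4 also rose in control mice alone, with -0.99, -0.90 and -0.77.

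**Figure D5:**
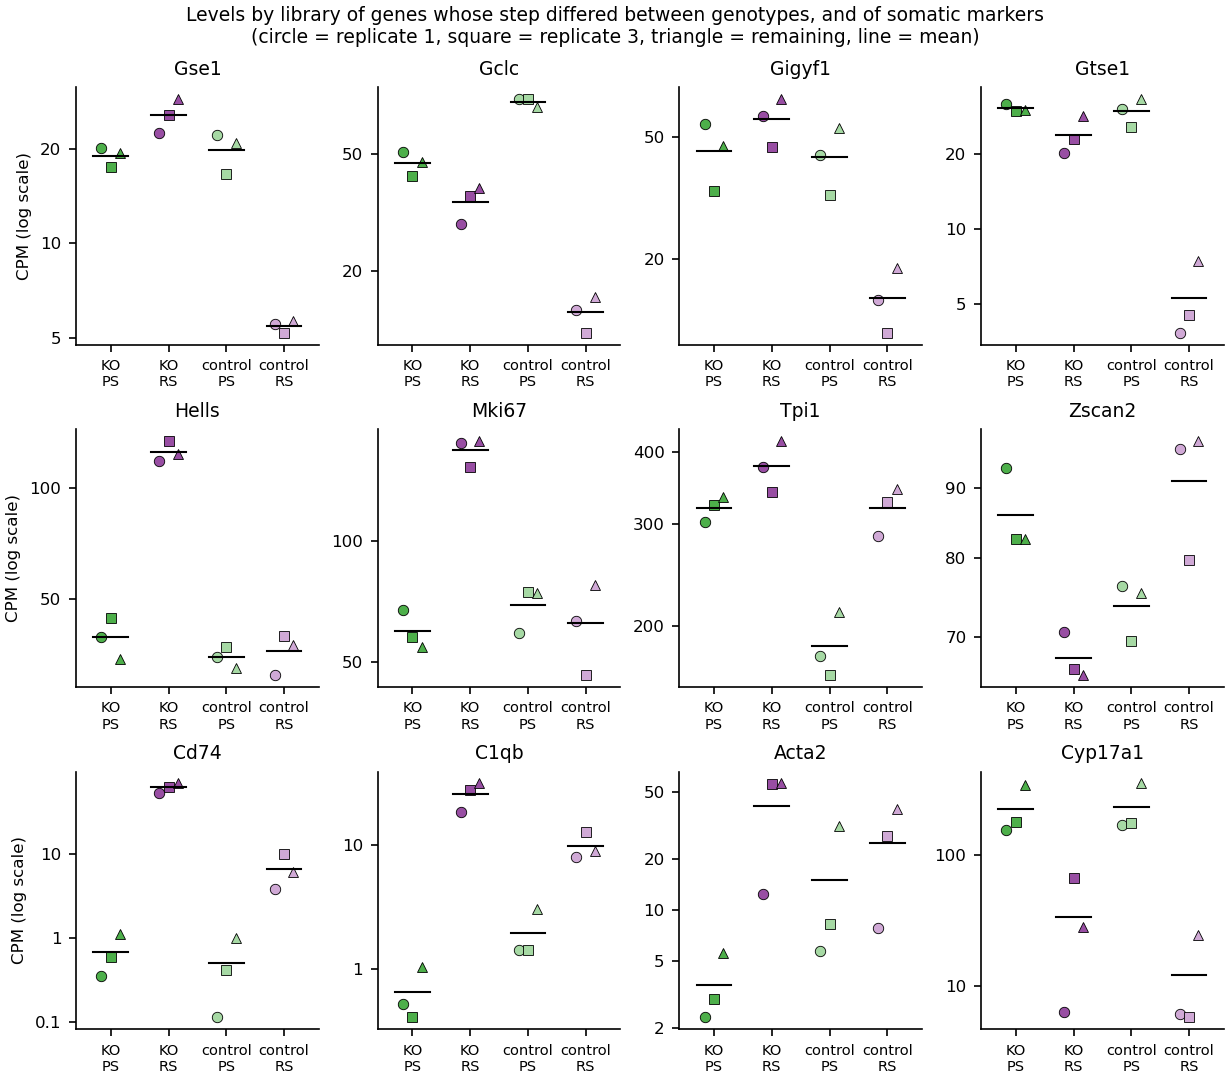
Levels of 12 genes in every library in CPM, on a log axis, by group. Gse1, Gigyf1 and Gtse1 are low in control RS only, Hells and Mki67 are high in KO RS only, and Cd74 and C1qb are highest in KO RS.

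In the gene groups, the blocked difference was called for 11 of 14 macrophage genes, all more positive in the KO, against 6.74% of all genes tested. That count was 9 with DESeq2 size factors and 1 to 10 when 1 library was left out, lowest without KO PS replicate 3. Of 16 peritubular genes 6 were called, and of 22 spermatogonial genes 6, in each case all positive. With 1 library left out these were 2 to 10 and 0 to 8, in both lists lowest without KO PS replicate 3 (tied, for peritubular genes, with the remaining control PS library) and highest without KO RS replicate 1. Among the packing genes H1fnt, H2afb1, Prm1, Prm2 and Tnp2 were called positive and H3f3a negative, and none of the list without KO PS replicate 3 or without the remaining control PS library. Prm2 stood at 424, 864 and 1177 CPM in control PS and 3277, 8359 and 3861 CPM in control RS, so that it started from a lower level in KO PS, and its blocked difference was 1.54 (SE 0.30, edgeR adjusted p = 0.00859). In the tail list 7 were positive, Akap4, Oaz3, Odf1, Smcp, Spata18, Spata3 and Tppp2, and 1 negative, Meig1. Without KO RS replicate 1 that split was 7 to 18, without KO PS replicate 3 it was 1 to 0, and without the remaining control PS library 3 to 0. Akap4 lost its call in 11 and Meig1 in 10 of the 14 further blocked settings.

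Among the corepressor subunits and deacetylases, 5 of 26 were called higher and 6 lower in the KO step (median -0.12), or 9 and 10 with the replicate block, where 34.6% of all genes tested were higher and 34.9% lower. Hdac11 went from 11.4, 8.51 and 17.0 CPM to 53.1, 46.7 and 74.4 CPM (2.13), Hdac9 rose by 2.52 and Rcor2, a CoREST subunit, by 2.42. Sap30, a subunit of the SIN3 complex, fell by 2.90, Rcor1 by 1.13 and Tbl1xr1, a subunit shared with HDAC3 complexes, by 1.01. Hdac1 was at 227, 261 and 244 CPM in KO PS and 248, 239 and 228 CPM in KO RS and was not called (-0.16), nor were Hdac2 and Ncor1 (-0.01 and -0.36). The blocked difference from the control step was called for Tbl1x, the X-linked relative of Tbl1xr1 (1.62), Rcor2 (1.27), Hdac6 (1.20) and Tbl1xr1 (-0.68), and all 4 calls were lost without KO PS replicate 3. Rcor2 lost its call in 11 of the 14 further blocked settings.

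Cholesterol synthesis genes gave 4 of 21 called higher and 7 lower (median -0.28). Cyp51, which also makes a meiosis-activating sterol, rose from 25.7, 27.0 and 38.4 CPM to 52.7, 59.9 and 62.3 CPM (0.82), as did Srebf2, the regulator of the pathway (0.90), while Ebp and Msmo1, enzymes of later steps, fell by 1.76 and 1.39. Leaving out KO PS replicate 3 or KO RS replicate 1 left 2 genes of the list called higher. Of 78 ribosomal protein genes, 1 was called higher and 6 lower (median -0.09), or 10 and 20 with the replicate block. Without KO PS replicate 3 it was 3 lower, and without KO RS replicate 1 it was 3 higher. Leaving out any 1 of the remaining KO PS, the remaining control PS, control RS replicate 1 or control RS replicate 3 gave 2 higher. Of 8 tested replication-dependent histones, 2 were higher and 4 lower (median -0.80), with 1 higher without KO PS replicate 1 or without KO RS replicate 3. Of 22 stress and immediate early genes, 3 were called higher, Klf4 (1.82), Jund (1.48) and Atf3 (0.96), and 2 lower, Ddit3 (-1.22) and Gadd45g (-1.25), or 4 lower with the replicate block and 1 lower without KO RS replicate 1, KO RS replicate 3 or the remaining KO PS library. Fos, whose libraries overlapped at 100, 90.6 and 157 CPM in KO PS and 58.0, 154 and 226 CPM in KO RS, was not called (0.19).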

How the data were processed

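RNA from 12 libraries in 4 groups of 3 was measured, from strand-specific total RNA libraries per the labels' protocols. The authors deposited raw counts per gene in a table per cell type, and the submitters' processing notes name HISAT2 2.1.0, HTSeq and the build mm10. The sources used here give neither the annotation nor the strand setting, so overlapping and antisense genes are uncertain. The deposited log2 fold changes, p-values and normalized values were not used. The tables were joined by gene symbol.

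Counts were fitted with edgeR 4.0.16 (R 4.3.3; limma 3.58.1) in 1 fit of 4 groups after filterByExpr and TMM scaling, with 8 residual degrees of freedom and Benjamini-Hochberg adjustment over the 16581 genes tested. A standard error is the log2 fold change divided by the square root of the F statistic. The procedure was tested on simulated data. RefSeq (GRCm38.p6) matched 21377 gene symbols, for positions and promoters only. The labels call the replicates biological, without naming animals, and the p-values rest on the spread between these libraries.

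The members and the 27 gene lists, with 663 tested entries, were chosen with earlier results of these data known. Named genes were the 10 largest rises and falls with at least 20 CPM in the higher of the groups, without overlap of libraries, the same with at least 100 CPM, the genes called in the interaction, the genes called in opposite directions, set examples of each list, and the 8 or fewer of smallest p in the blocked interaction within a class of control call. The rules with 100 CPM and with blocked classes were added after the data were seen. Predicted and unnamed genes were passed over, 1 among the rises and 10 among the falls.

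The replicate number was used as a block in a further fit (6 residual degrees of freedom). Between KO PS and KO RS, deviations from group means correlated at 0.233 to 0.446 for libraries of the same number. For different numbers the values were -0.423 to 0.165. In controls they were 0.398 to 0.445 against -0.319 to -0.109. Deviations within a group cancel, so a positive value for the same number pushes the values for different numbers down. These ranges are therefore not independent, and in the KO the nearest values were 0.233 and 0.165. What libraries of 1 number share was not tested. Replicate numbers were taken, as an assumption, to pair PS and RS libraries within a genotype. The block also gave KO and control libraries of 1 number a shared effect, and that match across genotypes was not checked. The sample titles give the replicate numbers 1 and 3 but do not state that libraries of 1 number are paired. The place of the remaining libraries is by elimination. No replicates agreed within sampling noise. Floors and shares cover counting error only. Alternatives were other scalings, DESeq2 1.42.0, limma voom, other filters and leaving out libraries.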

Additional observations from a re-analysis of the deposited data

Results flagged for a closer look

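The following results stood out because the step from PS to RS differed between KO and control mice by a test of the difference itself. In the fit without the block these were Gse1 (2.035 on the log2 scale), Gclc (1.68) and Cspg4 (4.343), all more positive in the KO. The call of Gse1 was lost in 10, that of Gclc in 11 and that of Cspg4 in 15 of the alternative settings. With the replicate block, 1117 genes had a more positive and 168 a more negative step in the KO.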

How the results depend on the processing

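The counts of genes called in the KO step and in the control step, and the X and Y share ratios, stayed within 1.5 times of their reported values under every alternative run for them, and KO step calls ranged from 4356 to 5390 higher and from 3817 to 4884 lower when 1 library was left out. No named gene changed sign where it was called, with 44 calls lost and 56 gained across settings, against 3260 cases without a change of call. Genes near 0 that were not called did change sign, such as Acr (0.12) and Ccna1 (0.04) by library size alone. The interaction was less stable. Its 3 positive genes were 35 by library size alone, 87 with DESeq2, 6 without a filter, and 0 without the remaining libraries of all groups (two-sided edgeR test). Leaving out 1 library gave 0 to 6. The genes with a negative interaction were 8 with DESeq2. With the replicate block they were 1117 and 168, or 804 and 469 with DESeq2 size factors and 2827 and 34 by library size alone. Leaving out 1 library from the blocked fit gave, as positive and negative genes, 699 and 474 without KO PS replicate 1, 111 and 22 without KO PS replicate 3, 783 and 77 without the remaining KO PS library, 1347 and 1435 without KO RS replicate 1, 642 and 52 without KO RS replicate 3, and 470 and 21 without the remaining KO RS library. For controls these were 612 and 58, 992 and 106, and 201 and 49 without PS replicates 1, 3 and remaining, and 645 and 383, 343 and 79, and 400 and 105 without RS replicates 1, 3 and remaining. The cause was not tested. Outside the counts given with their lists in the report, the block moved no KO step count by over 1.5 times. Genes near the floor of 3 counts, such as Cspg4, Mei4 and Fshr, are limited by depth.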
